A study of Mus musculus with 12 samples.

Results

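The transcription factors that set and keep B cell identity were followed in B cells of the Peyer's patches (PP), the lymphoid follicles of the small intestine. The genes described are Pax5, Ebf1, Spib, Spi1, Pou2af1, Pou2f2, Bach2, Ikzf1, Ikzf3 and Foxp1, taken by symbol as 10 of the 36175 genes of the deposited expression table. The rule that picks them is a list of names with no measured value in it. Bulk RNA-seq was available for 6 sham controls and 6 stroke mice, 1 library for each mouse. All 12 were male wild-type C57BL/6JHsd mice of 10 to 12 weeks without a transgene or drug in the labels. Stroke mice had the middle cerebral artery closed by a filament for 1 h, sham controls had the surgery without this injury, and PP were taken 18 h after surgery. B cells were enriched with a magnetic isolation kit and then with CD45 beads, so the libraries hold PP B cells of all stages together.

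Pax5 and Ebf1 commit lymphoid progenitors to the B cell lineage and keep B cell genes on in mature cells. The ETS factors Spi1 (PU.1) and Spib (SPI-B) bind related sites, and Pou2af1 (OCA-B) is a coactivator that joins octamer factors such as Pou2f2 (OCT-2) on DNA. Bach2 holds back plasma cell differentiation, Foxp1 supports B cell development and mature follicular B cells, and the zinc finger factors Ikzf1 (Ikaros) and Ikzf3 (Aiolos) both repress and activate lymphoid genes. The question here is whether brain injury moved the transcripts of these factors in the cells that remained in PP. In bulk samples, fewer cells of a type and less RNA per cell cannot be told apart.

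The values are TPM, a measure of transcript abundance, after a further scaling by the authors, and are called normalized TPM here. They are corrected for transcript length, so levels can be set side by side between genes, but the columns summed to between 559570 in sham control 6 and 1404340 in sham control 1. Read counts were not given, and the depth behind each value is therefore unknown. The number of genes above 0 was 30060 in stroke mouse 6 and lay between 20626 and 23947 in all other mice. The cells carried the label of B cells. The summed level of 6 B cell markers, among them Ms4a1, Cd79a and Cd79b, was between 3081 and 11498 in sham controls and between 4406 and 8818 in stroke mice. The summed level of 8 T cell markers lay between 71.9 and 185 over all mice. Intestinal epithelial markers, all 8 of which were above 0 in every mouse, ranged from 13.2 to 1494 in sham controls and from 12.1 to 907 in stroke mice, with medians of 411 and 115. The 4 of them that were tested had negative log2 fold changes with a median of -1.62, and none had an unadjusted p under 0.05 (limma). Among 7 myeloid markers S100a8 and S100a9 were listed at 0 in some mice.

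None of the 10 factors passed the test for a difference between sham controls and stroke mice. At an unadjusted p under 0.05, 0 of the 10 were called (limma), while 770 of 12590 genes tested were, or 6.12%. After Benjamini-Hochberg adjustment over all genes 0 of the 10 and 0 of 12590 genes were called, or 0%. The groups overlapped for each factor, whereas they were fully apart for 55 of the genes tested, or 0.437%. The log2 fold change was negative for 7 of the 10 factors, with a median of -0.07, and negative for 48.6% of all genes tested, with a median of 0.01. When columns were rescaled to the same total, Ebf1, Bach2, Ikzf1 and Foxp1 turned slightly positive, below the median of all genes on that scale, 0.12. Each factor passed the filter, by which no mouse could be below a value of 1.

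**Figure D1:**
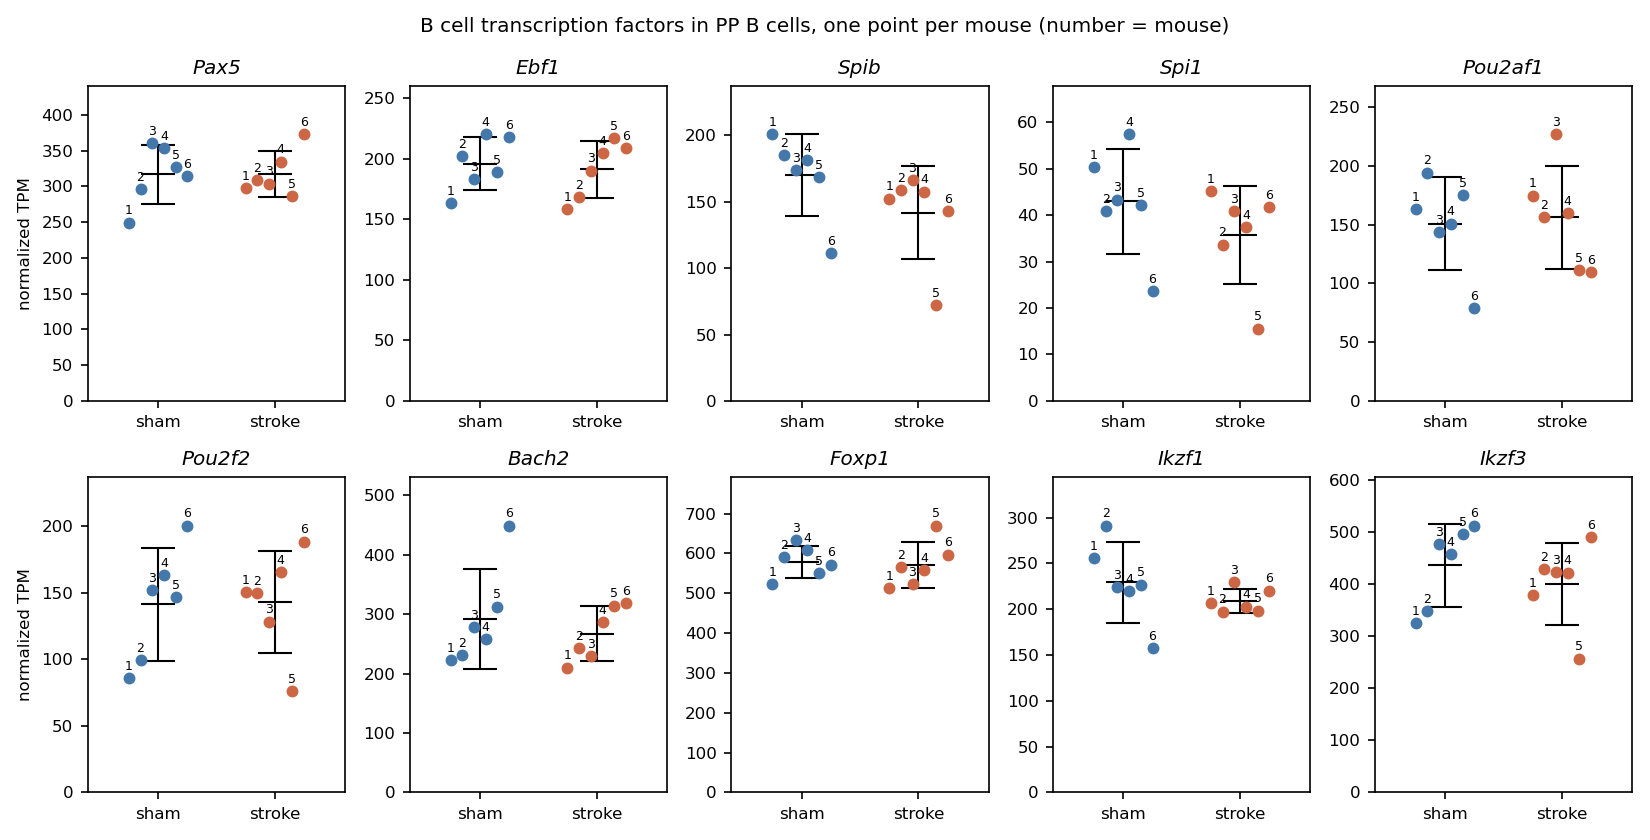
Normalized TPM (y axis, from 0) of each factor in sham controls (blue) and stroke mice (orange), with 1 numbered point for each of the 12 mice and bars for the mean ± SD of 6 mice. The groups overlap in every panel, and the lowest Spib values are those of stroke mouse 5 at 72.0 and sham control 6 at 111.

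Pax5 represses genes of other lineages and activates genes of the B cell lineage. It lies on chromosome 4 of GRCm38 from 44524757 to 44710487 on the minus strand. Its lowest, median and highest values were 249, 320.5 and 361 in sham controls, and 286, 306 and 373 in stroke mice. Stroke mouse 6 was above all sham controls, and the other 5 stroke mice lay within the sham range. The mean was 317 ± 40.8 in sham controls against 317 ± 31.7 in stroke mice (SD, n = 6 each). The log2 fold change was 0.01, with a 95% interval from -0.25 to 0.26 and an adjusted p of 0.993 (limma). The interval corresponds to a fold change between 0.844 and 1.2.

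Ebf1 acts together with Pax5 and opens chromatin at B cell genes. It occupies chromosome 11 from 44617317 to 45008091 on the plus strand. The sham controls had a lowest value of 163, a median of 196 and a highest value of 221, and the stroke mice had 158, 198 and 217. Only stroke mouse 1 fell outside the sham range, by being below it. Ebf1 was at 196 ± 21.9 in sham controls against 191 ± 23.5 in stroke mice (SD, n = 6 each). The log2 fold change of -0.04 had a 95% interval from -0.29 to 0.22 (adjusted p = 0.953, limma). Relative to each other, Pax5 and Ebf1 also stayed close, with a ratio of 1.62 ± 0.2 in sham controls against 1.68 ± 0.208 in stroke mice (SD, n = 6 each). The difference of their log2 ratios was 0.05 (exact two-sided permutation test, p = 0.675).

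Spib, the ETS factor that is active in B cells, plasmacytoid dendritic cells and the M cells of the epithelium over PP, had the smallest p of the 10 factors. The gene is on chromosome 7 from 44525993 to 44532071 on the minus strand. Values in sham controls ran from 111 over a median of 178 to 201, and those in stroke mice from 72.0 over 155 to 166. All 6 stroke mice were below the sham median, but only stroke mouse 5 was below the sham range, because sham control 6 was itself far below the other sham controls. Spib was at 170.2 ± 31.0 in sham controls against 142 ± 35.0 in stroke mice (SD, n = 6 each). The log2 fold change was -0.29 with a standard error of 0.21, a 95% interval from -0.74 to 0.16 and an adjusted p of 0.815 (limma). With columns rescaled to the same total it was -0.16, and scaled by B cell markers -0.07, where the median of all genes was 0.12 and 0.23. The exact two-sided permutation test gave a p of 0.258. The fold change of 0.817 had an interval from 0.597 to 1.12. Without stroke mouse 5 the log2 fold change was -0.11, and without sham control 6 it was -0.41 with an adjusted p of 0.314 (limma). With both of these mice left out, an alternative chosen after the data were seen, Spib alone of the 10 had an unadjusted p under 0.05 (p = 0.0301 and adjusted p = 0.365 from limma across all genes, no permutation test), beside 12.8% of the genes tested in that setting. Its log2 fold change was then -0.22.

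Spi1 encodes PU.1, which works at low dose in B cells and at high dose in myeloid cells. It is located on chromosome 2 from 91082390 to 91115756 on the plus strand. In sham controls the values were 23.6 at the lowest, 42.7 at the median and 57.4 at the highest. In stroke mice they were 15.6, 39.1 and 45.2. The same animals as for Spib stood low, sham control 6 and stroke mouse 5, and the groups overlapped. With 42.9 ± 11.3 in sham controls against 35.7 ± 10.6 in stroke mice (SD, n = 6 each), the log2 fold change was -0.29 (standard error 0.26, 95% interval from -0.85 to 0.28, adjusted p = 0.849, limma). It was -0.07 without stroke mouse 5 and -0.45 without sham control 6, and -0.16 and -0.07 on the 2 other scales given for Spib. Because Spi1 is also a myeloid factor, the 7 myeloid markers were summed. Their sum ranged from 36.8 to 285 in sham controls and from 45.2 to 157 in stroke mice, and it was lowest in the same 2 mice. Lyz2, the member with the highest level, had its lowest values there, 16.4 and 26.6. By contrast Itgam, at 4.55 in sham control 6, was the highest of the sham controls and Cd68, at 11.2, the second highest. In stroke mouse 5, however, Cd68 was the lowest of the stroke mice at 9.40 and Itgam the second lowest at 3.65. Csf1r was lowest of its group in both mice, at 4.33 in sham control 6 and 5.51 in stroke mouse 5. The summed B cell markers were lowest in these mice as well, at 3081 in sham control 6 and 4406 in stroke mouse 5. The sums of 5 M cell markers, 18.2 and 43.3, and of 5 plasma cell markers, 159 and 227, were lowest of their group in these mice too, although Gp2, the defining M cell marker, was at 0.727 or below in every mouse. The part of these marker lists in the Spi1 and Spib values was not tested. The ratio of Spib to Spi1 was 4.07 ± 0.542 in sham controls against 4.07 ± 0.579 in stroke mice (SD, n = 6 each) (exact two-sided permutation test of the log2 ratios, p = 0.978). In single mice it lay between 3.16 and 4.73.

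Pou2af1 encodes OCA-B, which is needed for germinal centres. The gene lies on chromosome 9 from 51213708 to 51240080 on the plus strand. It ranged from 78.7 to 194 in sham controls with a median of 157, and from 109.7 to 227 in stroke mice with a median of 158. Sham control 6 was the lowest of all mice and stroke mouse 3 the highest. The group means were 151 ± 39.7 against 156 ± 43.7 (SD, n = 6 each), and the log2 fold change was 0.06 (95% interval from -0.44 to 0.55, adjusted p = 0.963, limma).

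Pou2f2 encodes OCT-2, the octamer factor of B cells, on chromosome 7 from 25087344 to 25179726 on the minus strand. Sham values were 85.9, 149 and 200.3 at the lowest, median and highest, and stroke values were 75.8, 149.9 and 188. Low values came from sham controls 1 and 2 and from stroke mouse 5. Pou2f2 was at 141 ± 42.3 in sham controls against 143 ± 38.3 in stroke mice (SD, n = 6 each). Its log2 fold change of 0.02 had a 95% interval from -0.50 to 0.55 (adjusted p = 0.989, limma). Pou2af1 and Pou2f2 did not keep to 1 proportion. Their ratio was between 0.393 in sham control 6 and 1.96 in sham control 2, and it did not separate the groups (1.22 ± 0.609 and 1.16 ± 0.412, SD, n = 6 each, exact two-sided permutation test of the log2 ratios, p = 0.937).

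Bach2, a repressor of the plasma cell factor Prdm1, lies on chromosome 4 from 32238804 to 32586108 on the plus strand. The lowest, median and highest values in sham controls were 223, 268 and 449. Those in stroke mice were 209.98, 264 and 319. Sham control 6 was the highest of all mice, far above the next, and stroke mouse 1 was the lowest. The mean was 292 ± 83.6 in sham controls against 267 ± 46.0 in stroke mice (SD, n = 6 each), and the log2 fold change was -0.10 (95% interval from -0.49 to 0.28, adjusted p = 0.911, limma). Without sham control 6 the log2 fold change was 0.03.

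Foxp1, a forkhead factor, is on chromosome 6 from 98925338 to 99522721 on the minus strand. Values of 523, 581 and 634 marked the lowest, median and highest sham control, and 512, 562 and 669.9 the stroke mice. Stroke mouse 5, the lowest mouse for Spib and Spi1, was the highest mouse for Foxp1. The means were 579.5 ± 40.2 against 571 ± 57.3 (SD, n = 6 each), with a log2 fold change of -0.02 and, on the deposited scale, the narrowest 95% interval of the 10 factors, from -0.24 to 0.20 (adjusted p = 0.963, limma). The ratio of Bach2 to Foxp1 was 0.506 ± 0.15 in sham controls against 0.466 ± 0.0493 in stroke mice (SD, n = 6 each) (exact two-sided permutation test of the log2 ratios, p = 0.695).

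Ikzf1 encodes Ikaros, on chromosome 11 from 11685003 to 11772926 on the plus strand. Sham controls had values from 157 to 291 with a median of 226, and stroke mice had values from 197 to 229.6 with a median of 205. All 6 stroke mice lay within the sham range, which sham control 6 opened downward and sham control 2 upward. The means were 229 ± 44.4 against 209 ± 12.9 (SD, n = 6 each). The log2 fold change was -0.11 (95% interval from -0.40 to 0.18, adjusted p = 0.877, limma).

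Ikzf3 encodes Aiolos, on chromosome 11 from 98464902 to 98546031 on the minus strand. Its values were 325, 468 and 513 at the lowest, median and highest in sham controls, and 257, 422 and 489.9 in stroke mice. Stroke mouse 5 was the lowest of all mice, and 5 of the 6 stroke mice were below the sham median. With 436 ± 79.7 (SD, n = 6) against 399.95 ± 78.5 (SD, n = 6), the log2 fold change was -0.13 (95% interval from -0.50 to 0.24, adjusted p = 0.882, limma). The ratio of Ikzf3 to Ikzf1 was 2.02 ± 0.75 in sham controls against 1.91 ± 0.342 in stroke mice (SD, n = 6 each) (exact two-sided permutation test of the log2 ratios, p = 0.911). Over the 5 ratios compared, the adjusted p was 0.978 for each.

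**Figure D2:**
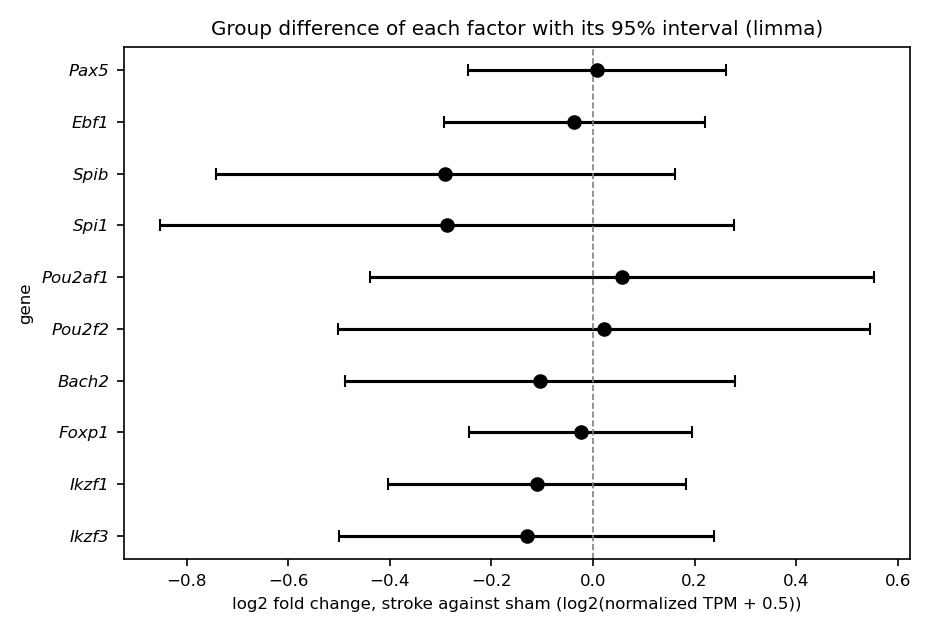
Log2 fold change of each factor in stroke mice against sham controls (x axis) with its 95% interval from limma, 6 mice a group. Every interval holds 0, and on the deposited scale plotted Foxp1 has the narrowest interval, from -0.24 to 0.20.

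The factors differed widely in level. Foxp1 was highest with a mean over all mice of 575 normalized TPM, followed by Ikzf3 at 418, Pax5 at 317, Bach2 at 279, Ikzf1 at 219, Ebf1 at 194, Spib at 156, Pou2af1 at 154, Pou2f2 at 142 and Spi1 at 39.3. Of the genes tested, 98.96% had a mean level below that of Foxp1, 94.3% below that of Pou2f2 and 71.3% below that of Spi1. Foxp1 was above Ikzf3 in 12 of 12 mice and Pou2f2 above Spi1 in 12 of 12. Ikzf3 exceeded Pax5 in 11 of 12 mice, by 0.38 ± 0.21 on the log2 scale (SD, n = 12). Ebf1 exceeded Spib in 11 of 12 mice, by 0.35 ± 0.50 (SD, n = 12), with sham control 1 as the exception. Pax5 was above Bach2 in 10 of 12 mice and Bach2 above Ikzf1 in 9, with log2 ratios of 0.21 ± 0.29 and 0.33 ± 0.48 (SD, n = 12). Ikzf1 was above Ebf1 in 8 of 12 mice, Pou2af1 above Pou2f2 in 7 and Spib above Pou2af1 in 6, with log2 ratios of 0.17 ± 0.30, 0.12 ± 0.68 and 0.03 ± 0.34 (SD, n = 12). The log2 ratios were tested by an exact two-sided sign-flip permutation test over the mice, adjusted over the 9 pairs of neighbours, whose order was set by the same values. The adjusted p was 0.0022 for Foxp1 over Ikzf3 and for Pou2f2 over Spi1, 0.00293 for Ikzf3 over Pax5, 0.0297 for Ebf1 over Spib and 0.0439 for Bach2 over Ikzf1 (exact permutation). It did not pass for Pax5 over Bach2 at 0.0542, Ikzf1 over Ebf1 at 0.0967, Pou2af1 over Pou2f2 at 0.625 or Spib over Pou2af1 at 0.771 (exact permutation).

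The spread between mice of a group differed as well. On the deposited scale Foxp1, Pax5 and Ebf1 were the steadiest, with within-group SDs of 0.12, 0.17 and 0.17 on the log2 scale, compared with a median of 0.31 over all genes tested. Spi1, Pou2f2, Pou2af1 and Spib varied most, with SDs of 0.50, 0.46, 0.43 and 0.39. This order did not hold with columns rescaled to the same total or scaled by B cell markers. With columns rescaled to the same total, the standard error of the log2 fold change was 0.24 for Foxp1, 0.25 for Pax5 and 0.26 for Ebf1, against 0.16 for Ikzf1, 0.19 for Pou2af1 and 0.21 for Spib.

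How the factors varied together was then examined over the 12 mice, on log2 values and for all 45 pairs. The adjusted p of Pearson's r was under 0.05 for 4 pairs, of which 3 were positive and 1 was negative, whereas that of Spearman's rho was for 0 pairs (100000 permutations, Benjamini-Hochberg over 45 pairs). Unadjusted, 10 pairs had a p under 0.05 by r and 11 by rho. The pairs were Spib with Spi1, Pou2f2 with Ikzf3, Pax5 with Pou2f2, and Pou2af1 with Bach2. Each of the 4 had the same sign within the 6 sham controls and within the 6 stroke mice. When the 2 mice farthest from the median of the first gene were left out, r passed for 0 of the 45 pairs after adjustment and for 8 before it (permutation tests).

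Spib and Spi1 had an r of 0.933 (permutation test, p = 0.00052, adjusted p = 0.0117) and a rho of 0.664 (permutation test, p = 0.0219, adjusted p = 0.125). Within sham controls r was 0.916 and within stroke mice 0.938. Without sham control 6 and stroke mouse 5 it was 0.508, so the relation rested on those 2 mice. Among all other genes tested, Spi1 took rank 47 by its r with Spib. The genes most like Spib over the 12 mice were Mettl4, Dynll1 and Icmt, with r of 0.984, 0.983 and 0.976, out of 12589 genes compared. For Spi1 they were Exoc8, Dhx37 and Phf23, with r of 0.941, 0.938 and 0.937.

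Pou2f2 and Ikzf3 had an r of 0.914 (permutation test, p = 8e-05, adjusted p = 0.0036) and a rho of 0.727 (permutation test, p = 0.0094, adjusted p = 0.0875), with 0.954 in sham controls and 0.943 in stroke mice. Sham controls 1 and 2 and stroke mouse 5 were low for both genes. The r was 0.771 without sham control 1 and stroke mouse 5, and no longer passed after adjustment. Pax5 and Pou2f2 had an r of 0.752 (permutation test, p = 0.00415, adjusted p = 0.0467) and a rho of 0.797 (permutation test, p = 0.00286, adjusted p = 0.0776). It was 0.760 in sham controls, 0.764 in stroke mice and 0.608 without sham control 1 and stroke mouse 6.

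Pou2af1 and Bach2 ran in opposite directions, with an r of -0.844 (permutation test, p = 0.00081, adjusted p = 0.0121) and a rho of -0.727 (permutation test, p = 0.00972, adjusted p = 0.0875). Sham control 6 combined the lowest Pou2af1 value, 78.7, with the highest Bach2 value, 449. The r was -0.864 in sham controls, -0.835 in stroke mice and -0.660 without sham control 6 and stroke mouse 3.

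**Figure D3:**
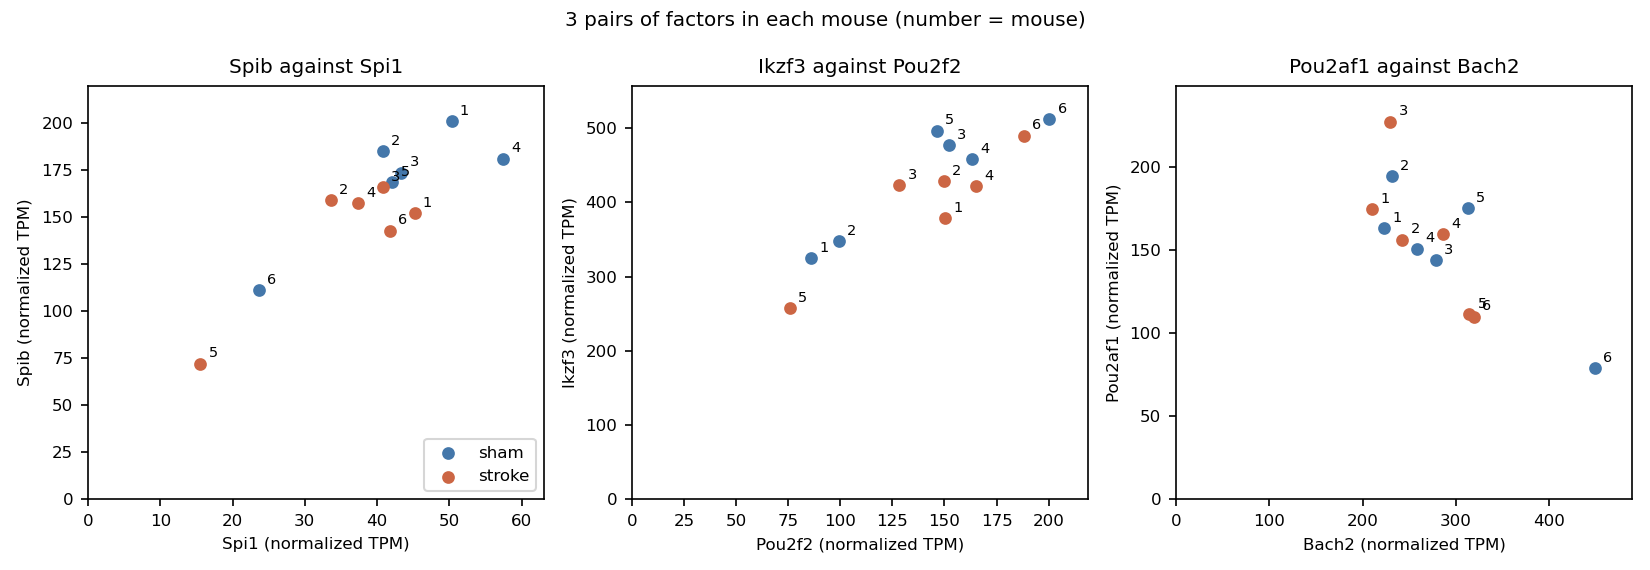
Normalized TPM of Spib against Spi1, Ikzf3 against Pou2f2 and Pou2af1 against Bach2 in each numbered mouse (sham controls blue, stroke mice orange, axes from 0). Sham control 6 and stroke mouse 5 lie apart at low Spib and Spi1, and sham control 6 lies apart at high Bach2.

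The relations between factors depended on the scale of the columns. Against the log2 of the column sum, the total of all values of a mouse, Ikzf1 had an r of 0.935 (permutation test, p = 9e-05, adjusted p over 10 factors = 9e-04), Pou2af1 had 0.740 (permutation test, p = 0.00755, adjusted p = 0.0252) and Bach2 had -0.826 (permutation test, p = 0.00072, adjusted p = 0.0036). The rho values were 0.853 (permutation test, p = 0.00085, adjusted p = 0.0085), 0.720 (permutation test, p = 0.0107, adjusted p = 0.0267) and -0.797 (permutation test, p = 0.00265, adjusted p = 0.0132). Spib and Spi1 passed by rho but not by r, with rho of 0.755 and 0.678 (permutation test, adjusted p = 0.0206 and 0.0355). The other 5 factors passed by neither. This comparison was added after the data were seen and was run for the 10 factors only. The share of all genes tested that follow the sum in this way is therefore unknown. Within groups, r for Ikzf1 was 0.966 in sham controls and 0.605 in stroke mice, for Pou2af1 0.876 and 0.706, and for Bach2 -0.952 and -0.813. Without sham controls 1 and 6, the mice farthest from the median of the log2 sum, r was 0.892 for Ikzf1, 0.624 for Pou2af1 and -0.619 for Bach2. The genes most like Ikzf1 were Oxct1, Rps27l and Rps3, with r of 0.980, 0.973 and 0.963, the last 2 of which are named for ribosomal proteins.

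**Figure D4:**
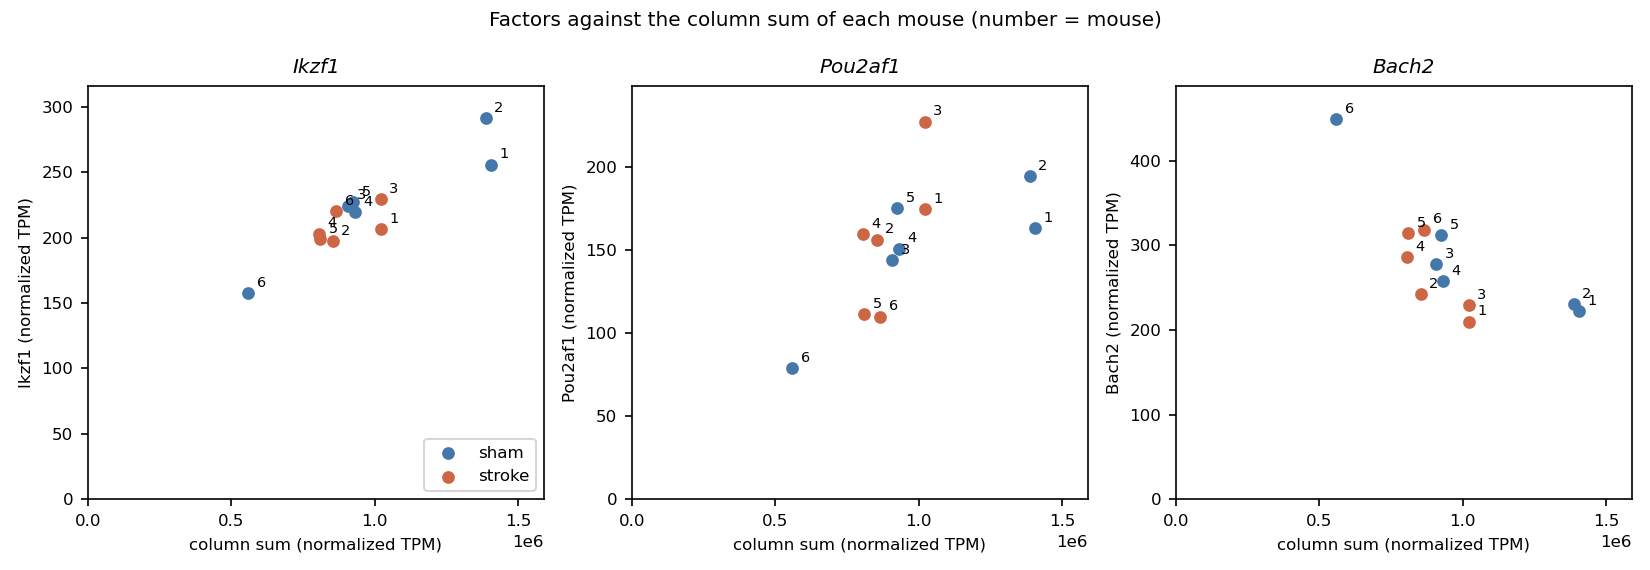
Normalized TPM of Ikzf1, Pou2af1 and Bach2 (y axes, from 0) against the unlogged column sum of each numbered mouse (x axes, normalized TPM, from 0). Ikzf1 rises with the sum (r = 0.935, on log2 values) and Bach2 falls with it (r = -0.826, on log2 values), with sham control 6 at one end and sham controls 1 and 2 at the other.

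When every column was rescaled to the same sum before the logarithm, 24 of the 45 pairs passed by r, on a scale where all factors of a mouse share 1 divisor. The opposite course of Pou2af1 and Bach2 was absent on that scale, with an r of -0.01, while Spib with Spi1 kept 0.892 and Pou2f2 with Ikzf3 had 0.977. The r of Bach2 with Ikzf1 went from -0.671 to 0.920 and that of Pou2f2 with Ikzf1 from -0.512 to 0.812. The part of the column sum in the member values was not tested.

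**Figure D5:**
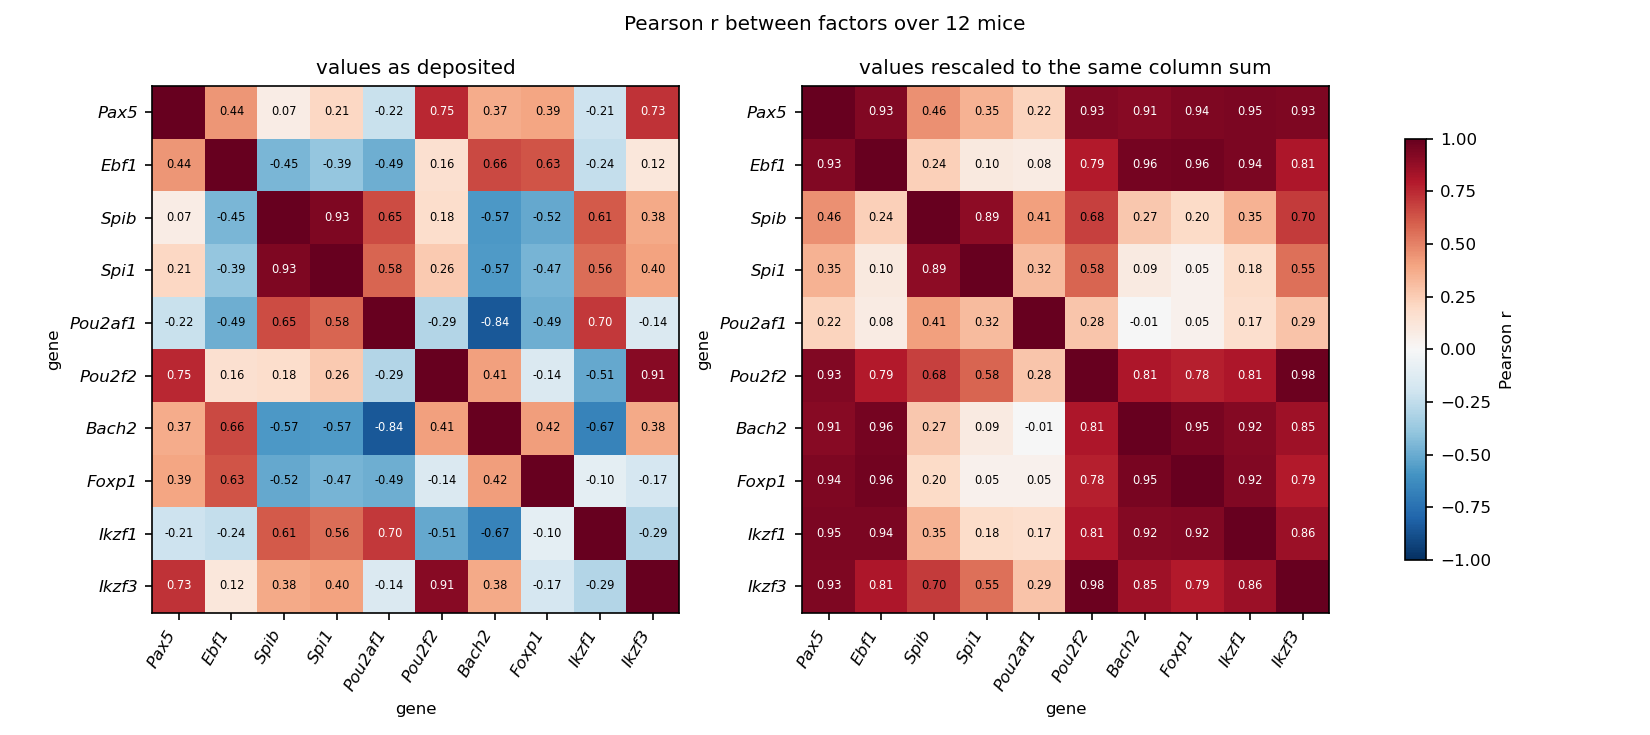
Pearson's r of each pair of factors over 12 mice (colour scale from -1 to 1, r written in each cell) for values as deposited at the left and values rescaled to the same column sum at the right. Pou2af1 with Bach2 goes from -0.84 to -0.01, and Spib with Spi1 stays at 0.93 and 0.89.

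The other genes of the same network were described by lists. Of 30 partner and related factors, all tested, 1 was higher and 0 lower by unadjusted p under 0.05 (limma), no larger a share than the 4.42% higher and 1.69% lower of all genes tested, and their median log2 fold change was -0.01. The gene was Tcf3, which encodes the E proteins E12 and E47 that induce Ebf1. It was at 105 ± 10.04 in sham controls against 141 ± 17.2 in stroke mice (SD, n = 6 each), with a log2 fold change of 0.41 and an adjusted p of 0.716 (limma). Its ranges, 92.0 to 123 and 119 to 162, overlapped. Id2, an inhibitor of E proteins, was at 15.2 ± 9.05 against 21.9 ± 6.32 (SD, n = 6 each), and Bcl11a, a zinc finger factor of B cells, at 209.7 ± 24.7 against 162 ± 47.0 (SD, n = 6 each), and neither passed.

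Of 14 genes that Pax5 activates, 13 were tested, 3 were lower and 0 higher by unadjusted p under 0.05 (limma), beside 1.69% lower and 4.42% higher of all genes tested, and the median log2 fold change was -0.03. The complement receptor Cr2 was at 258 ± 31.9 in sham controls against 158 ± 56.9 in stroke mice (SD, n = 6 each), with a log2 fold change of -0.83 (adjusted p = 0.748, limma). The adhesion adaptor Nedd9 and the low-affinity IgE receptor Fcer2a had log2 fold changes of -0.27 and -0.72 (adjusted p = 0.791 for both, limma). Stroke mouse 5 had the lowest value of all mice for Cr2 at 47.1 and Fcer2a at 48.6, as it had for Spib and Spi1. Without this mouse the log2 fold change was -0.51 for Cr2 and -0.36 for Fcer2a. With columns rescaled to the same total none of the 3 was called, and the log2 fold changes of Cr2, Fcer2a and Nedd9 were -0.70, -0.59 and -0.14 (p = 0.0575, 0.142 and 0.604 from limma across all genes, no permutation test). The summed level of 5 follicular B cell markers, 2 of which, Fcer2a and Cd55, are also in this list, was likewise lowest in stroke mouse 5, at 446. It lay between 908 and 1319 in sham controls and had a median of 1034 in stroke mice. All 5 had a negative log2 fold change, with a median of -0.27, and Fcer2a was the 1 with an unadjusted p under 0.05 (limma). The general B cell markers were negative in 5 of 6, with a median of -0.26, beside 48.6% of all genes tested. Among 7 germinal centre B cell markers 5 were positive, with a median of 0.15. The part of the follicular markers in the values of Cr2, Nedd9 and Fcer2a was not tested. With 1 mouse left out at a time, the unadjusted p (limma) was no longer under 0.05 in 6 of 12 omissions for Fcer2a and in 8 of 12 for Nedd9. For Cr2 this was so in 0 of 12.

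Of 10 genes that Pax5 represses, 9 were tested, and 2 were higher and 0 lower at an unadjusted p under 0.05 (limma), beside the same 4.42% and 1.69% of all genes, with a list median of 0.04. Flt3, a cytokine receptor of progenitors, was at 9.63 ± 2.08 against 13.7 ± 1.62 (SD, n = 6 each), a log2 fold change of 0.50 (adjusted p = 0.716, limma). Emb, a membrane glycoprotein, had a log2 fold change of 0.71 (adjusted p = 0.789, limma) and its highest value, 34.0, in stroke mouse 5, without which the log2 fold change was 0.43. The unadjusted p for Emb was no longer under 0.05 without sham control 4 and without sham control 5. Sdc1, the plasma cell marker CD138, had the next smallest p of the list, with 7.96 ± 3.57 against 5.35 ± 1.81 (SD, n = 6 each).

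Of 7 genes under octamer factors and OCA-B, a list that holds Spib itself, 6 were tested, with a list median of -0.21. At an unadjusted p under 0.05, 1 was higher and 0 lower (limma), beside 4.42% and 1.69% of all genes tested. The gene was Syk, the kinase downstream of the B cell receptor, at 246 ± 19.6 against 328 ± 81.6 (SD, n = 6 each), a log2 fold change of 0.39 (adjusted p = 0.748, limma). On the deposited scale all 6 stroke mice lay above all sham controls for Syk, as for 0.437% of the genes tested in either direction, but by a small margin, from 271.7 to 272.4. The groups overlapped once columns were rescaled to the same total. Stroke mouse 5 was highest at 492, and without it and sham control 6 the log2 fold change was 0.23. S1pr2 was at 14.2 ± 5.40 against 18.2 ± 7.55 (SD, n = 6 each). Of 7 plasma cell factors all were tested, 0 had an unadjusted or adjusted p under 0.05 (limma), and the median log2 fold change was -0.09. Zbtb20, Xbp1 and Ell2 had the smallest p, with log2 fold changes of 0.32, -0.41 and -0.22 (adjusted p = 0.791, 0.793 and 0.793, limma). Prdm1, the main target of Bach2, was at 9.27 ± 1.90 against 11.2 ± 4.07 (SD, n = 6 each). Together 7 of the 64 genes tested in these lists, or 10.9%, had an unadjusted p under 0.05 (limma), beside 6.12% of all genes tested, and 0 had an adjusted one.

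The sequences just before the start sites of Spib, Pou2af1 and Bach2 are shown because these genes stood in the pairs of factors that varied together or in opposite directions. They are RefSeq promoter sequences of GRCm38.p6, the 250 bases before the start, 5′ to 3′ in the direction of the gene, and no exon of the gene in GENCODE lies in them. Capitals mark a match to the core of EBF sites, CCCNNGGG on either strand, and the Spib stretch holds 2 overlapping matches. The windows are chr7:44532072-44532321 on the minus strand for Spib, chr9:51213440-51213689 on the plus strand for Pou2af1 and chr4:32417185-32417434 on the plus strand for Bach2. The Bach2 window lies inside the gene, before an internal start site downstream of the gene's first base at 32238804, and it is the only Bach2 window in the table.
Spib: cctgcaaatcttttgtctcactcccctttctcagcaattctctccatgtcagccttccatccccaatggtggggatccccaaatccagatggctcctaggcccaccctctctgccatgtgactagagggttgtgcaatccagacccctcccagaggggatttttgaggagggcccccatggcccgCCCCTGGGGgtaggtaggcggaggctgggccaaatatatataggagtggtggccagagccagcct
Pou2af1: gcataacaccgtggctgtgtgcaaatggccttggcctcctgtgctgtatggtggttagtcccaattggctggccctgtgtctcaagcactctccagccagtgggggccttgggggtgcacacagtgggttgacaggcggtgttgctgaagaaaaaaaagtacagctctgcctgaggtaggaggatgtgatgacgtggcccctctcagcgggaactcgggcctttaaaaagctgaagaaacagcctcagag
Bach2: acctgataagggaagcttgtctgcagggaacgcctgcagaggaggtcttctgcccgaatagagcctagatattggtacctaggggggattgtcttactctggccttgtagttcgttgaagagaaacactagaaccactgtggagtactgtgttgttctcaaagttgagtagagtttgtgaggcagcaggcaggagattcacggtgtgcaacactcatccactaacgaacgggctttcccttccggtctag

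Promoter entries were found for 8 of the 10 factors, the exceptions being Spi1 and Ikzf3. They held 12 windows, 3 for Foxp1, 2 each for Ikzf1 and Ebf1 and 1 for each other factor, and the 250 bases before each start were searched. The EBF core was present in 3 of the 12, 1 each of Foxp1, Ikzf1 and Spib, beside 11.8% of all 32851 promoter windows. The PU box core GAGGAA, read by Spi1 and Spib, was in 2 of the 12, of Ebf1 and Pou2f2 (23.3% of all windows). The Ikaros core TGGGAA was in 1 window of Ebf1 (21.6%) and the forkhead core TAAACA in the 3 of Foxp1 (12.0%), each on either strand. The octamer ATGCAAAT (1.6% of all windows) and the AP-1-like core of BACH sites TGACTCA (4.46%) matched in 0 of the 12. A match is a run of letters and not a bound site.

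Transcripts of 4 factors, Pax5, Pou2f2, Bach2 and Foxp1, share exon sequence with another annotated gene, such as Bach2os on the opposite strand of Bach2, and how reads were divided between them is not known from the table.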

How the data were processed

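The authors quantified the RNA-seq reads with kallisto 0.48.0 after trimming with Trimmomatic 0.39 and summarised them by gene with sleuth 0.30.0 (submitters' processing notes, build GRCm38). The table deposited by the authors gives an expression signal for each gene, labelled as normalized TPM, without read counts. The design assumed plain TPM, and because the columns do not share a sum the values were treated as a signal on the log scale. Here log2(value + 0.5) was computed for the 12590 genes that reached a value of 1 in all mice. These were compared by limma 3.58.1 (R 4.3.3), with no block and with Benjamini-Hochberg adjustment over all genes. Fold changes of low genes come out too small on this scale. Single values and the 5 ratios went through exact two-sided permutation tests, whose smallest p is 0.00216 for 6 against 6 mice, and correlations with 100000 permutations (Python 3.11.15, numpy 2.4.6). The limma fit was first tested on simulated data. Alternatives were other pseudocounts, filters and scalings, quantile normalization, removal of immunoglobulin genes, scaling by B cell markers, a replicate block, an intensity trend, sample quality weights and leaving out each mouse.

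With the exception of 1 gene, which is not reported here, the genes named are all 10 factors, the 3 genes with the smallest p of each other list, marker genes and the 3 genes most like each of the 3 factors with the smallest p. The names of the factors and lists were chosen with earlier results of these data known, although no measured value enters the rule for the factors. Positions are from GENCODE M21 on GRCm38, where 35869 of the 36175 identifiers were found.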

Additional observations from a re-analysis of the deposited data

Results flagged for a closer look

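In 2 of the 20 sets of 6 values (10 factors, 2 groups) the lowest mouse stood apart from the other 5, its gap to the next mouse taking more than 0.625 of the range of the group. Both were Spib values. In sham control 6 Spib was at 111.2, with a gap of 0.64 of the range, and in stroke mouse 5 it was at 72.0, with a gap of 0.754 of the range. By chance about 1 in 20 sets is marked in this way. The same 2 mice had the lowest Spi1 value of their group, at 23.6 and 15.6, and the lowest summed B cell and plasma cell markers. The part of these in the Spib values was not tested.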

How the results depend on the processing

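The number of factors with an adjusted p under 0.05 was 0 in every alternative run, and the number with an unadjusted p under 0.05 was 0 in all but 1, the joint omission of sham control 6 and stroke mouse 5, where it was 1. Depth is unknown, so counting error could not be set beside the spread of mice. When 1 mouse at a time was left out, the log2 fold change ranged from -0.41 to -0.11 for Spib, -0.45 to -0.07 for Spi1, -0.059 to 0.048 for Pax5, -0.088 to 0.015 for Ebf1, -0.12 to 0.15 for Pou2af1, -0.11 to 0.19 for Pou2f2, -0.17 to 0.028 for Bach2, -0.21 to -0.04 for Ikzf1, -0.21 to -0.01 for Ikzf3 and -0.072 to 0.0058 for Foxp1. Differences of log2 ratios ranged from -0.073 to 0.048 for Spib to Spi1, -0.16 to 0.13 for Ikzf3 to Ikzf1, -0.25 to 0.22 for Pou2af1 to Pou2f2 and -0.15 to 0.056 for Bach2 to Foxp1. Genes higher at an unadjusted p under 0.05 were 395 to 936, genes lower 146 to 1162 (the most without sham control 6), genes with an adjusted p under 0.05 were 0 to 1 (1 without sham control 1), and genes of the other lists 4 to 12 (the most without sham control 6, where 16.6% of all genes were called).

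Rescaling to the same total, removing immunoglobulin genes before it and scaling by B cell markers moved the median log2 fold change of all genes to 0.12, 0.12 and 0.23. In that order Ebf1 turned to 0.089, 0.085 and 0.18, Bach2 to 0.022, 0.018 and 0.11, Ikzf1 to 0.017, 0.012 and 0.11 and Foxp1 to 0.10, 0.098 and 0.19, and Ikzf3 to 0.089 with B cell markers only. Without a change of sign, rescaling and B cell markers moved Spib to -0.16 and -0.07, Spi1 to -0.16 and -0.07, Pax5 to 0.13 and 0.23, Pou2af1 to 0.18 and 0.28 and Pou2f2 to 0.15 and 0.24. Relative to the shifted medians the values of Ebf1, Bach2, Ikzf1, Foxp1 and Ikzf3 were at or below 0. Foxp1 was 0.11 after quantile normalization, Pax5 -0.037 with quality weights, and Pou2af1 -0.030 and Ikzf3 0.042 without sham control 6 and stroke mouse 5. The cause of these turns was not tested. The adjusted p of each factor was 0.314 or higher in every alternative run (limma).

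Counts of higher and lower genes were 1418 and 350 with no filter, 341 and 72 rescaled, 342 and 70 without immunoglobulin genes, 866 and 703 with quality weights, and 818 and 819 without sham control 6 and stroke mouse 5. Scaled by B cell markers they were 791 and 27, where the median log2 fold change of all genes was 0.23. Lower genes were 327 after quantile normalization, and 1 gene had an adjusted p under 0.05 with the filter on a mean of at least 1. Genes of the other lists numbered 12 with quality weights and 11 without the 2 mice, in settings where 12.5% and 12.8% of all genes were called. The replicate numbers shared by the groups gave deviations correlated by 0.0134 to 0.494 in same-numbered mice (4 of 6 over 0.1, mean 0.218, other pairs -0.0414), and the labels give these numbers no meaning. With the number as a replicate block, 770 genes were higher and 404 lower, 0 with an adjusted p under 0.05, and no factor passed.

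Pairs of factors passing by r were 0 without the 2 farthest mice and 24 rescaled. Without sham control 6 and stroke mouse 5 there were 4, of which Pou2f2 with Ikzf3 (0.836) and Pax5 with Pou2f2 (0.869) were among the first 4, while Pou2af1 with Bach2 was at -0.603.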
